A study of Homo sapiens with 2 samples.

Results

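The peaks described here are the mERG peaks that were named for a non-coding RNA gene. They were chosen as the rows of the peak list whose gene type was ncRNA, and there were 2197 of them among the 18070 peaks of the list, or 12.2% (95% Wilson interval 11.7 to 12.6). They named 728 of the 5011 genes in the list, against 4117 protein-coding genes named by 15400 peaks. ChIP-seq was performed in VCaP cells, an established line from prostate cancer with a TMPRSS2-ERG gene fusion, with a rabbit polyclonal antibody against ERG mono-methylated at a lysine of its ETS domain (mERG). The series held 1 mERG library and 1 control library, both from VCaP cells grown in regular medium. The control is labelled input in its title and anti-IgG under its antibody, so which of these it was cannot be told from the labels. Chromatin was cross-linked with formaldehyde, digested with MNase and sonicated, and the libraries were read from a single end. The peaks were called by the authors with MACS on the hg19 assembly and annotated with HOMER. There was no replicate of either library, so all intervals given for shares and medians cover counting error only, and no difference between groups of peaks could be set against a replicate error. How deeply each library was sequenced is unknown, since the list gives no read counts.

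ERG belongs to the ETS family of transcription factors, which recognise a GGAA core in DNA, and it is expressed in prostate cells when the androgen-responsive TMPRSS2 promoter is fused to it. Non-coding RNA genes take several forms: microRNAs are cut from short hairpins that often sit inside an intron of a longer host gene, antisense and intronic transcripts overlap a protein-coding gene by definition, and long intergenic RNAs lie between genes. HOMER names each peak for the gene with the nearest transcription start site (TSS), whatever gene the peak lies in, and gives the location of the peak separately, so a peak in an intron of a long gene takes the name of a small RNA gene whose start is closer.

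Sequences of the microRNAs with most peaks, and of 2 example regions with high scores, are shown first. Among the 249 microRNA genes named by a peak, 226 were found in the RefSeq table of mature microRNAs (GRCh38.p14). The mature sequences of the 5 microRNA genes with most peaks follow, 5′ to 3′, with the seed (bases 2 to 8), which pairs with target transcripts, in capitals. No seed was shared between them, and let-7i-5p carries the seed of the let-7 family.
hsa-miR-4714-3p: cCAACCUAgguggucagaguug
hsa-miR-4714-5p: aACUCUGAccccuuagguugau
hsa-miR-2909: gUUAGGGCcaacaucucuugg
hsa-miR-620: aUGGAGAUagauauagaaau
hsa-miR-3170: cUGGGGUUcugagacagacagu
hsa-let-7i-3p: cUGCGCAAgcuacugccuugcu
hsa-let-7i-5p: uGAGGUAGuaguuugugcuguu
As examples from the 10 genes with the highest scores, peaks of 2 genes are shown as the 300 bases around the peak centre, on the plus strand of GRCh37, the same assembly as hg19, with every GGAA and its reverse complement TTCC in capitals. The MIR6753 peak lay in an intron of CHKA and the MIR4515 peak in an intron of BTBD1, and the windows were chr11:67842814-67843113 and chr15:83726385-83726684.
MIR6753 peak: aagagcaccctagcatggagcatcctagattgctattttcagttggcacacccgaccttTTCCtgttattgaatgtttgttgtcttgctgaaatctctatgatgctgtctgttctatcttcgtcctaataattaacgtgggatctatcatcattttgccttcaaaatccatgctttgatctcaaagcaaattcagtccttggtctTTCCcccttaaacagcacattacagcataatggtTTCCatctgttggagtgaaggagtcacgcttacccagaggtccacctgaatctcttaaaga
MIR4515 peak: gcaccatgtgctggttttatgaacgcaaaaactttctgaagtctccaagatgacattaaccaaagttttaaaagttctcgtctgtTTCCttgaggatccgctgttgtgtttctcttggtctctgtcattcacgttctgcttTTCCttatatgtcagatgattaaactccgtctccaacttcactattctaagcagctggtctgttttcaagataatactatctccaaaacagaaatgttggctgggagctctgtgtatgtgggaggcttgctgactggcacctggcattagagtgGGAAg
In windows of this length, GGAA or TTCC was present in 93.4% of the ncRNA peaks (92.3 to 94.4, n = 2195 on the chromosomes of the assembly) and in 92.4% of the protein-coding peaks (92.0 to 92.8, n = 15392), so its presence does not set the shown windows apart from other peaks.

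Peaks were unevenly spread over the ncRNA genes. A single peak named 368 of the 728 genes, or 50.5% (46.9 to 54.2), against 42.6% (41.1 to 44.1) of the protein-coding genes. The 47 ncRNA genes with at least 10 peaks held 716 peaks, 32.6% of the total, and in protein-coding genes the share of peaks in genes with at least 10 was higher, at 39.4%. The 10 genes with most peaks held 253, or 11.5%, against 3.69% for the 10 leading protein-coding genes, which were drawn from more genes. The median gap between neighbouring peaks of the same gene was 4075 bp (3634 to 4648, n = 1469 gaps), against 3611 bp (3455 to 3775, n = 11283) for protein-coding genes, with overlapping intervals, and gaps of at most 1 kb were 22.4% and 25.1%.

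The gene with most peaks was MIR4714, a microRNA gene on chromosome 15, with 46 peaks. All 46 lay in introns of IGF1R, the receptor tyrosine kinase for insulin-like growth factor 1, which was itself named by 27 further peaks. Their scores, the authors' value for each peak that was used only to rank, filter and describe peaks within this list, ranged from 34.3 to 132 with a median of 50.3, against a median of 40.5 (40.1 to 41.0) over all ncRNA peaks. The closest lay 10.5 kb from the MIR4714 start, so none was at the hairpin. Next came MIR2909 on chromosome 17, with 32 peaks and scores of 34.0 to 123 (median 53.0). Of these, 17 lay in introns of ACACA, the acetyl-CoA carboxylase that commits carbon to fatty acid synthesis, and 14 in introns of AATF, a nuclear factor that antagonises apoptosis. The MIR2909 peaks therefore fell in 2 neighbouring genes, on either side of the microRNA start. MIR620 on chromosome 12 had 28 peaks with scores of 33.9 to 73.9, of which 21 lay in introns of MED13L, a subunit of the Mediator kinase module, and 4 were intergenic.

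**Figure D1:**
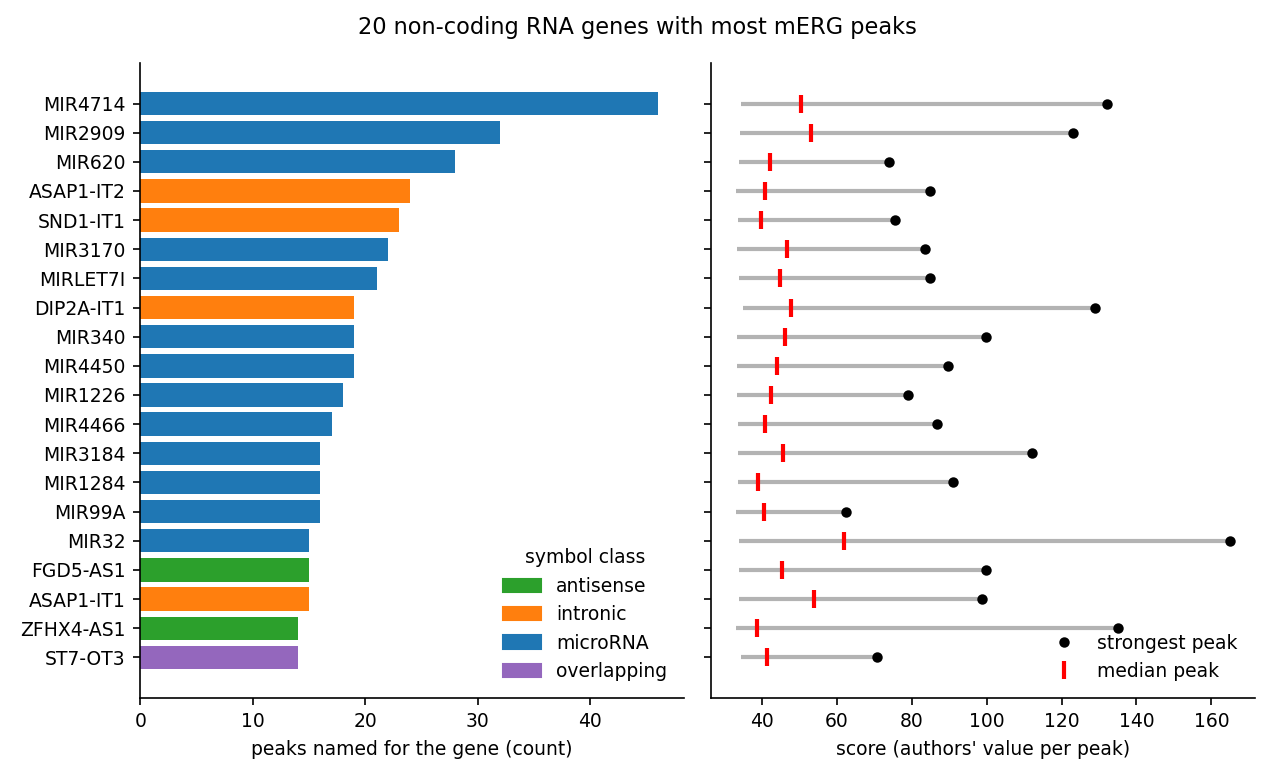
Peak count (left, coloured by symbol class) and score range (right) of the 20 ncRNA genes with most mERG peaks. The grey line runs from the lowest to the highest score of the gene's peaks, the black point marks the strongest and the red tick the median. MIR4714 leads with 46 peaks, and MIR32 has the highest score among these 20 genes at 165.

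Other microRNA genes among the 10 with most peaks showed the same arrangement. MIR3170 on chromosome 13 had 22 peaks, all in introns of FARP1, at 19.1 to 157 kb from the microRNA start and all downstream of it. FARP1 itself was named by 0 peaks. MIRLET7I, on chromosome 12, had 21 peaks, all in introns of the phosphatase gene PPM1H on the opposite strand, and none closer than 55.2 kb. MIR340 had 19 peaks with scores of 33.3 to 99.8, of which 18 lay in introns of RNF130, a RING-type ubiquitin ligase gene, and the closest was 364 bp from the microRNA start. MIR4450 also had 19 peaks, all in introns of SHROOM3, an actin-binding regulator of epithelial cell shape, which was named by 0 peaks. These microRNA names stood for peaks spread over introns of long protein-coding genes.

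Intronic transcripts, whose symbols carry the name of the gene they lie in, made up the rest of the 10. ASAP1-IT2 on chromosome 8 had 24 peaks, all in introns of ASAP1, which encodes an Arf GTPase-activating protein, and its sister transcript ASAP1-IT1 had another 15. SND1-IT1 on chromosome 7 had 23 peaks, 22 of them in introns of SND1, a nuclease-domain protein of RNA silencing complexes that was named by 42 further peaks. DIP2A-IT1 on chromosome 21 had 19 peaks with scores of 34.9 to 129. For 9 of them the annotated transcript was matched to DIP2A and for 5 to DIP2A-IT1 itself, and the transcript of the remaining 5 could not be matched to a gene by its identifier, although all 5 centres lay in the GENCODE body of DIP2A. The closest DIP2A-IT1 peak was 132 bp from the start of the transcript. The plot of peak positions shows where the peaks of the 6 genes with most peaks lay around the start of the named gene.

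**Figure D2:**
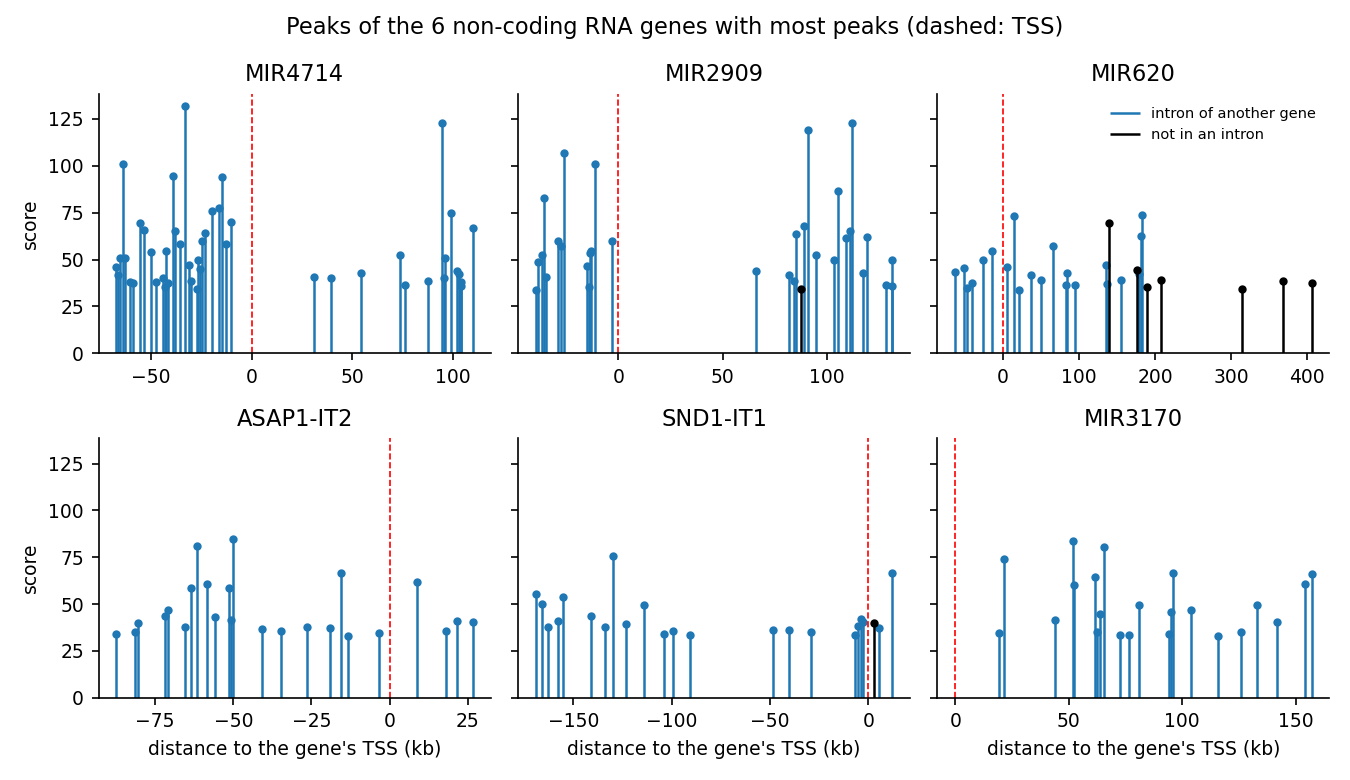
Score against distance to the named TSS for each peak of the 6 ncRNA genes with most peaks. Each stem is a peak, blue where it lay in an intron of another gene and black where it did not, and the dashed line is the TSS. The 22 MIR3170 peaks all lie downstream, and 31 of the 46 MIR4714 peaks lie upstream.

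The strongest peaks belonged mostly to other genes. The highest scores in the ncRNA peaks were 295 and 249, at chr8:128834975-128837827 and chr8:128840371-128843367, both named for MIR1204 at 28.2 and 33.7 kb from its start. MIR1204 had 13 peaks within 27.4 kb, with a median score of 60.3, and the list annotated all 13 as intergenic. GENCODE places all 13 inside PVT1, a long non-coding RNA gene beside MYC that hosts a series of microRNAs. MIR30D and MIR30B, neighbouring members of the miR-30 family on chromosome 8, came next with top scores of 225 and 222. The 222 peak, at chr8:135810289-135813924, was 744 bp from the MIR30B start and was annotated to its transcription end site, and MIR30D had 13 peaks within 22.9 kb, of which 12 were intergenic. These loci combined high scores with peaks outside protein-coding genes, unlike the genes with most peaks.

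The next strongest genes, apart from LINC01012, had most of their peaks in introns. MIR6753 had 5 peaks, all in introns of CHKA, the choline kinase that opens phosphatidylcholine synthesis, and only the strongest, at 172, stood far above the median of 41.1. MIR32 had 15 peaks with scores of 33.8 to 165 and a median of 61.9, of which 14 lay in introns of TMEM245, the gene on the same strand that contains the microRNA. The remaining MIR32 peak had a score of 101 and lay 934 bp upstream of the microRNA start. The list classed it as promoter of the microRNA, although its centre also lay inside the GENCODE body of TMEM245. MIR4515 had 10 peaks of 37.0 to 150, all in introns of BTBD1, a BTB-domain gene named by 1 further peak. LINC01012 had 4 peaks with a median score of 77.9, the strongest at 143: 2 lay in its own introns, 1 at its transcription end site and 1 was annotated as intergenic. ZFHX4-AS1, antisense to the zinc-finger homeobox gene ZFHX4, had 14 peaks, 13 of them in ZFHX4 introns, with a top score of 135 at 3714 bp upstream of its start and a median of 38.5. MIR4714 (132) and DIP2A-IT1 (129) completed the 10 strongest genes and were the members of both lists of 10.

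Scores and widths of the ncRNA peaks were close to those of the protein-coding peaks, with a lower share of scores of at least 50. Their median score was 40.5 (40.1 to 41.0), against 41.0 (40.8 to 41.2) in the 15400 protein-coding peaks, with overlapping intervals. A score of at least 50 was reached by 22.9% (21.2 to 24.7) of ncRNA peaks and 25.5% (24.8 to 26.1) of protein-coding peaks, with intervals that did not overlap, and a score of at least 100 by 37 ncRNA peaks, or 1.68% (1.22 to 2.31), against 2.36% (2.13 to 2.61). The highest score was 295 among ncRNA peaks and 592 among protein-coding peaks. The median score was 41.6 (40.8 to 42.2) for peaks of microRNA genes and 39.6 (38.9 to 40.3) for the rest of the ncRNA peaks. Median width was 393 bp (385 to 400) against 402 bp (399 to 405), and 6.24% (5.30 to 7.33) against 5.77% (5.42 to 6.15) were wider than 1 kb, with overlapping intervals for both. Within the ncRNA peaks, those in introns had a median score of 40.8 (40.3 to 41.5) and the intergenic ones 38.7 (37.6 to 39.3), although the strongest ncRNA peak was one that the list annotates as intergenic.

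The location classes differed more. Introns held 1794 ncRNA peaks, or 81.7% (80.0 to 83.2), against 89.3% (88.8 to 89.7) of protein-coding peaks. Intergenic sequence held 285 ncRNA peaks, or 13.0% (11.6 to 14.4), against 6.10% (5.73 to 6.49). The class at transcription end sites held 40 ncRNA peaks (1.82%, 1.34 to 2.47) and the promoter class 13 (0.592%, 0.346 to 1.01), against 0.701% (0.581 to 0.846) and 0.214% (0.153 to 0.301) of protein-coding peaks. For a microRNA gene, both classes refer to the ends of a hairpin gene with a median length of 0.0820 kb. A peak in either class can therefore lie deep inside a host gene. Exons held 26 ncRNA peaks (1.18%, 0.809 to 1.73), 3′ UTRs 25 (1.14%, 0.772 to 1.67) and non-coding transcripts 14 (0.637%, 0.380 to 1.07), with intervals that overlapped those of the protein-coding shares, 1.90% (1.69 to 2.12), 1.47% (1.29 to 1.67) and 0.286% (0.213 to 0.383). 5′ UTRs held 0 ncRNA peaks, which allows a share of up to 0.137%, and the protein-coding share of 0.0779% lay below this limit. Promoter peaks were thus rare in both groups. The intergenic class is that of the list, and a count added after these values were seen placed 44.9% (39.2 to 50.7) of the intergenic ncRNA peaks and 47.0% (43.8 to 50.2) of the intergenic protein-coding peaks outside every GENCODE gene. Over all locations, 6.20% (5.26 to 7.28, n = 2195) of ncRNA peaks and 3.12% (2.86 to 3.41, n = 15392) of protein-coding peaks had their centre outside every GENCODE gene.

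Most ncRNA peaks lay in an intron of a gene other than the one that named them. The transcript in the annotation belonged to another gene for 1623 of the 2197 peaks, or 73.9% (72.0 to 75.7), which is 90.5% (89.0 to 91.7) of the intronic ones. It was the named gene for 147 (6.69%, 5.72 to 7.81) and could not be matched to a gene for 24 (1.09%), all of which had their centre in the GENCODE body of another protein-coding gene. In protein-coding peaks the proportions were the other way round, with 16.8% (16.2 to 17.4) in an intron of another gene and 72.2% (71.4 to 72.9) in an intron of the named gene. Among the 1623, the host was a protein-coding gene for 1547. The annotated transcript itself had a non-coding identifier for 146, which includes non-coding transcripts of protein-coding genes. The ncRNA genes concerned numbered 489, and the peaks lay in 452 host genes.

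Because the list names the nearest start, such a peak is expected to be closer to the ncRNA start than to the host start. Where the start of the host gene was known from GENCODE (1617 peaks), which is not the annotation used for the list, this held for 1600, and the median distances were 33.4 kb to the ncRNA start and 101 kb to the host start. The hosts were long genes, with a median length of 146 kb. By the annotated intron, the 5 hosts with most ncRNA-named peaks were IGF1R with 46, ASAP1 with 39, PVT1 with 32, SND1 with 25 and MIR99AHG with 24. The 13 MIR1204 peaks, which the list annotates as intergenic, are not counted for PVT1 here. PVT1 and MIR99AHG are themselves non-coding: the PVT1 introns held peaks named for MIR1205, MIR1206, MIR1207 and TMEM75, and those of MIR99AHG, the host transcript of a microRNA cluster on chromosome 21, held peaks named for MIR99A, MIR125B2 and MIRLET7C. For 192 of the 452 hosts, 0 peaks of the list carried the host's own name, and these hosts held 485 ncRNA-named peaks. They included FARP1 with 22 peaks, SHROOM3 with 19, NSRP1 with 16 and NR2C2, a nuclear receptor gene, with 15. The gene names in the list therefore do not show these hosts.

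The share of peaks with the ncRNA gene and the host on the same strand differed between classes of RNA. The host is the gene whose intron held the peak, and it need not contain the RNA gene. Of 1322 peaks with both strands known, 53.0% (50.3 to 55.6) had both genes on the same strand. All peaks of a gene and host pair have the same relation, so a pair was counted once per peak. MIR4714 in IGF1R was thus counted 46 times and ASAP1-IT2 in ASAP1 24 times. The intervals treat peaks as separate and do not cover the spread between pairs. The same-strand share was 81.0% (77.7 to 83.9, n = 610) for microRNAs and 82 of 82 for intronic transcripts, and it was 12.6% (9.47 to 16.5, n = 342) for antisense transcripts. It was 10.9% (6.35 to 18.1, n = 110) for provisional LOC symbols, 26.8% (18.4 to 37.3, n = 82) for other symbols and 48.7% (37.9 to 59.6, n = 78) for long intergenic RNAs. Divergent transcripts had 0 of 9 and microRNA host genes 9 of 9. The intronic, antisense and divergent classes were set by symbol suffixes that describe how a gene lies relative to its neighbour. Their strand shares therefore largely restate the naming and are not a result about the peaks.

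By symbol, microRNA genes were the largest class. They held 979 peaks, 44.6% of the ncRNA peaks, in 249 genes, with a median score of 41.6 (40.8 to 42.2) and 83.4% (80.9 to 85.6) of the peaks in an intron of another gene. With a median gene length of 0.0820 kb, none of the 735 microRNA peaks whose gene was found in GENCODE had its centre in the hairpin gene, which allows a share of up to 0.408%. So short a gene leaves little room for a peak centre, and this count therefore says little about microRNA genes. Antisense transcripts held 433 peaks in 173 genes, with 79.9% (75.9 to 83.4) in an intron of another gene. The antisense gene with most peaks was FGD5-AS1, with 15, all upstream of its start in introns of NR2C2 on the opposite strand, at scores of 33.7 to 99.8. The 15 intronic genes held 110 peaks, or 7.33 per gene, the highest mean of the classes with at least 100 peaks, and 90% (83.0 to 94.3) lay in an intron of another gene. Most of these peaks were those of ASAP1-IT2 (24), SND1-IT1 (23), DIP2A-IT1 (19) and ASAP1-IT1 (15), which carry the class mean.

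Long intergenic RNAs differed from these classes in where their peaks lay. The 110 LINC genes held 203 peaks, of which 37.4% (31.1 to 44.3) were intergenic and 39.9% (33.4 to 46.8) lay in an intron of another gene, and their median score was 38.3 (37.4 to 40.2). For LINC genes found in GENCODE, 55 of 195 peaks, or 28.2% (22.4 to 34.9), had their centre inside the named gene, against 11.5% (10.1 to 13.1, n = 1776) over all ncRNA peaks and 77.4% (76.7 to 78.1) over protein-coding peaks. The share over all ncRNA peaks includes the 735 microRNA peaks, of which 0 had their centre in the named gene. Gene length was not matched between any of these groups. For genes with other symbols the share was 30.5% (23.3 to 38.9, n = 131) and for LOC genes 23.5% (17.8 to 30.4, n = 170). Both intervals overlapped that of LINC genes. LINC01554 had most peaks of the LINC genes, with 9 of 40.3 to 92.8, and 6 of them lay in introns of ELL2, an RNA polymerase II elongation factor gene. The 115 genes with provisional LOC symbols held 274 peaks, led by LOC101927296 with 12, of which 8 lay in its own introns and 4 in those of PDZRN3. Genes with other symbols, 57 in number, held 159 peaks. Smaller classes were microRNA host genes (15 peaks in 4 genes, 11 of them named for MIR600HG, with 9 in introns of STRBP), overlapping transcripts (14 peaks, all for ST7-OT3, with 6 in its own introns and 5 in those of ST7), divergent transcripts (9 peaks in 3 genes, with 4 for EIF3J-DT, all in introns of CTDSPL2) and snoRNA host genes (1 peak, for SNHG15 at 1321 bp upstream of its start).

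Distances to the named start were similar in size and differed in direction. The median absolute distance to the named start was 29429 bp (27188 to 31077) for ncRNA peaks and 27768 bp (27188 to 28364) for protein-coding peaks, with overlapping intervals. Peaks named for ncRNA genes were downstream of the start in 47.8% (45.7 to 49.9) of cases, and protein-coding peaks in 80.0% (79.3 to 80.6). The median signed distance was -2467 bp (-4360 to -120) for ncRNA peaks and 18812 bp (18212 to 19386) for protein-coding peaks. The shares within 10 kb were close, at 21.2% (19.6 to 23.0) and 19.8% (19.2 to 20.5), while 68.1% (66.2 to 70.1) of ncRNA peaks and 72.3% (71.6 to 73.0) of protein-coding peaks were within 50 kb. Antisense genes had the fewest downstream peaks of the classes with at least 100 peaks, at 33.7%, and microRNA genes had 53.6%.

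Only 30 ncRNA peaks, or 1.37% (0.958 to 1.94), lay within 1 kb of the named start, against 0.325% (0.246 to 0.428) of protein-coding peaks. Many of the 30 were named for microRNA genes and lay in the body of a protein-coding gene. The start of a microRNA gene is an end of its short hairpin, so such a peak need not lie at the start of a longer transcript. The strongest of the 30 were the MIR30B peak described above, the MIR32 peak inside TMEM245 that was classed as promoter, and a peak with a score of 81.3 at 992 bp from the MIR6081 start. A peak with a score of 79.0 lay 611 bp upstream of MIR103A2, in the body of PANK2, which encodes a pantothenate kinase. The MIR30D peak in this group had a score of 66.1 at 348 bp. The closest of all, at 27 bp upstream of MIR320B2, had a score of 34.8, near the lowest score in the list, 33.0.

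Among 21 long non-coding RNAs known from prostate cancer, 6 were named by a peak, with 20 peaks in all and a median score of 43.4. PCA3, whose transcript is a urinary marker of prostate cancer and lies antisense within PRUNE2, had 11 peaks with scores of 33.7 to 78.2 and a median of 36.8. For 9 of them the annotated intron was one of PRUNE2 and for 2 it was one of PCA3, while 8 of the 11 had their centre in the longer GENCODE body of PCA3, and the strongest, at chr9:79438186-79438544, was 59.0 kb downstream of the PCA3 start. DRAIC had 3 peaks with a top score of 49.5, 3505 bp from its start, and all 3 lay in its GENCODE body. PCAT2 had 3 peaks with scores of 44.8 to 46.6, all annotated as intergenic and none closer than 22785 bp to its start. PCAT7, PRNCR1 and PCGEM1, a prostate-restricted transcript, had 1 peak each, with scores of 48.9, 43.2 and 37.6. These peaks were annotated as intergenic, at 16289, 26131 and 47284 bp from the named start, and the GENCODE bodies of PCAT7, PRNCR1 and PCGEM1 held 0 peaks. Over all RefSeq lncRNA genes without a LOC symbol, 7.03% (416 of 5918) were named by a peak, a share that includes genes newer than the annotation used for the list. The other 15 were named by 0 peaks, among them SCHLAP1, PCAT14 and ARLNC1, whose GENCODE bodies also held 0 peaks. PCAT1 was named by 0 peaks, but its GENCODE body held 6 that carried the names of neighbours. Of the 18 with a GENCODE body, 3 had a peak inside it (16.7%, 5.84 to 39.2), against 3.63% (3.37 to 3.91) of the 18702 lncRNA genes of GENCODE. These shares were added after the list counts were seen, and gene length was not matched.

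Among 30 widely studied long non-coding RNAs, 5 were named by a peak, beside the 7.03% of RefSeq lncRNA genes. PVT1 had 12 peaks with scores of 36.0 to 104 and a median of 57.7, of which 5 were in its own introns and 7 were annotated as intergenic. Its GENCODE body held 58 peaks, most of them named for the microRNAs within it. LINC-PINT, a transcript induced by p53, had 7 peaks of 34.8 to 55.3, all in its own introns. CASC15 had 2 peaks, and CCAT1 and LUCAT1 had 1 each, with top scores of 63.5, 34.4 and 39.7. The CASC15 peaks lay in its own introns, none closer than 85218 bp to its start, and the CCAT1 peak was annotated as intergenic at 4700 bp. The LUCAT1 peak was 250103 bp from its start, in an intron annotated to ADGRV1, although the GENCODE body of LUCAT1 held it. Of the 28 with a GENCODE body, 22 held 0 peaks of any name, among them NEAT1, MALAT1, HOTAIR, MEG3 and H19, and 6 (21.4%, 10.2 to 39.5) held a peak, beside the 3.63% of all GENCODE lncRNA genes given above. CASC19 with 4 and CASC8 with 1 were among these 6, although 0 peaks carried their names. The 4 CASC19 peaks, 3 named for PCAT2 and 1 for CCAT1, also lay in the PCAT1 body. The body shares of the 2 gene lists therefore rest partly on the same peaks. Of 14 microRNA host genes fixed as a list, MIR99AHG was the 1 named by a peak. It had 2 peaks of its own, whereas its GENCODE body held 27. The bodies of MIR29B2CHG and MIR34AHG held 4 and 1 under other names, and the remaining 11 held 0, so that 3 of 14 (21.4%, 7.57 to 47.6) had a peak inside the body.

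The short ETS core was about as frequent in ncRNA peaks as in protein-coding peaks, and a longer word was more frequent within 100 bp of the centre. GGAA or TTCC was present within 100 bp of the centre in 85.0% (83.5 to 86.4) of ncRNA peaks and 83.7% (83.1 to 84.3) of protein-coding peaks, against 82.3% (81.1 to 83.4) and 79.3% (78.8 to 79.7) of windows of the same length 2000 bp to either side. AGGAAGT, on either strand, was present within 100 bp of the centre in 5.51% (4.63 to 6.55) of ncRNA peaks and 4.10% (3.80 to 4.42) of protein-coding peaks, and in 4.65% (4.06 to 5.31) and 4.07% (3.86 to 4.30) of their side windows. The intervals of the ncRNA and protein-coding peaks did not overlap, whereas those of ncRNA peaks and their side windows did. Within 50 bp of the centre the shares were 2.87% (2.25 to 3.66) and 2.13% (1.91 to 2.37), with overlapping intervals. CCGGAAGT was present within 100 bp of the centre in 0 of 2195 ncRNA peaks, which allows a share of up to 0.137%, and in 6 of 15392 protein-coding peaks. Over whole peaks it was present in 2 ncRNA and 29 protein-coding peaks. All 3 words contain GGAA and were sought as exact matches. The short core was thus present in most windows inside and outside the peaks. Its share was higher in the peaks than in the side windows, with intervals that did not overlap in either group. Median GC content was 39.3% (38.8 to 39.8) in ncRNA peaks and 38.3% (37.8 to 38.3) in protein-coding peaks. LINE, SINE or LTR repeats lay at the centre of 32.4% (30.4 to 34.3) of ncRNA peaks and 36.8% (36.0 to 37.5) of protein-coding peaks.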

How the data were processed

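ChIP-seq data from VCaP cells (1 mERG library and 1 control) were analysed from the deposited peak list. Per the submitters' processing notes, the authors used Bowtie2, Picard, HOMER and hg19, and the header of the list names MACS. The MACS version and threshold are not given in the sources used here. The score column was used as deposited, to rank, filter and describe peaks only, because the list does not name its scale. The authors' distance to the TSS was used as deposited. Groups were set by the gene type in the list, and the gene classes by symbol. The transcript in each annotation was matched to a gene through the list and the RefSeq table. Gene bodies and strands came from GENCODE release 44 on GRCh37, and ncRNA genes that matched a protein-coding record there were treated as not found. Shares have Wilson 95% intervals and medians exact order-statistic intervals, both tested on simulated data, as was the word search. For a count of 0 the limit given is 3 counts of the total. Sequence windows were taken from the 5 strongest peaks of different genes off 1 chromosome, of which 3 are not reported here. No test was run over peaks. Genes named are the 10 with most peaks, the 10 with the highest score, the leading gene of each class, those of the gene lists with a peak and the 5 leading hosts; MIR103A2, MIR6081, MIR320B2, ASAP1-IT1, some list members without a peak and a few hosts were named after their values were seen. The members and lists were chosen with earlier results of these data known. Calculations ran in Python 3.11.15 with SciPy 1.17.1, pandas 2.3.3 and NumPy 2.4.6, and figures were drawn with Matplotlib 3.10.9.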

Additional observations from a re-analysis of the deposited data

How the results depend on the processing

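Of 54 alternatives, 28 left a value within its 95% interval and 26 moved it. No paired analysis was possible because each group had 1 library. In the 50% of peaks with the higher scores, the median score was 49.6, the median width 485 bp, the intron share 83.9%, the median distance 26609 bp and the share in introns of other genes 76.8%. With scores of at least 50, the ncRNA share of all peaks was 11.2%, the median score 59.3, the width 611 bp, the intron share 83.7%, the distance 27148 bp, the share in introns of other genes 77.0%, the share with GGAA or TTCC 87.7% and the share on repeats 30.2%. Without microRNA genes, these were 7.13% of all peaks, a median score of 39.6, a width of 374 bp, 79.0% in introns and 66.3% in introns of other genes. Without LOC symbols, 10.8% of all peaks and 75.8% in introns of other genes remained. Without chromosomes 8 and 17 the width was 373 bp. Each gene's strongest peak had a median score of 42.8 and its closest peak a median distance of 16493 bp. Placing the centre in the GENCODE body of another protein-coding gene, in place of the annotated intron, gave 80.7%. GGAA or TTCC was present in 62.2% of windows of 50 bp to each side and in 95% of whole peaks. Most of these alternatives keep stronger peaks or fewer genes, or take 1 peak per gene, while the GENCODE body and the window lengths keep all peaks and change the measure. A score filter raises the median score by its setting, and a longer window leaves more room for GGAA or TTCC. Taking each gene's strongest or closest peak also selects on the value measured. Such shifts follow from the settings, and the cause of the others was not tested. The order of ncRNA and protein-coding peaks was kept under every alternative run for score, width, intron share, introns of other genes, GGAA or TTCC, repeats and single-peak genes. The median distance was the exception in 1 of 7 alternatives: with the stronger 50% of peaks it was below the 27217 bp of protein-coding peaks. With 1 library of unknown depth, the list cannot show which weaker sites were missed, and a peak's name says which start is nearest, not which gene is regulated.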

Other observations

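The share of peaks named for ncRNA genes varied between chromosomes. It was highest on chromosome 13, with 76 of 308 peaks (24.7%), and chromosome 21, with 88 of 503 (17.5%), and it was 6.71% on chromosome 20 (56 of 835). Single loci carried much of the 2 highest shares: MIR3170 named 22 of the 76 peaks on chromosome 13. Of the 88 on chromosome 21, introns of MIR99AHG held 24 and DIP2A-IT1 named 19. Chromosome 8 held most ncRNA peaks, 220, which were 10.0% of the ncRNA peaks, while 8.82% of all peaks lay there. Chromosome 3 followed with 206 and chromosome 7 with 204.

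The microRNA families given here were chosen after their values were seen. The let-7 family had 23 peaks in 2 genes, 21 of them for MIRLET7I and 2 for MIRLET7C, all in introns of another gene. The miR-30 family had 20 peaks in 3 genes: 13 for MIR30D, 2 for MIR30B and 5 for MIR30E, the last all in introns of NFYC, a subunit of the CCAAT-binding factor, with a top score of 55.8. MIR26A1 had 9 peaks, all in introns of CTDSPL, a phosphatase gene known to host miR-26a, with a top score of 91.6. MIR99A had 16 peaks and MIR125B2 had 7, and the highest score was 62.4 for the former and 85.7 for the latter.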
